A study of Mus musculus with 6 samples.

Results

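The enzymes that build the sugar chains of mucins were followed in the antrum, the distal part of the stomach. The set holds 37 named glycosyltransferases and sulfotransferases, picked by gene symbol and not by a measured value, and 36 of them were found among the 17256 genes of the deposited expression table. Chst5 was not analysed here. RNA came from antrum epithelium of C57BL/6 mice in which atrophic gastritis had been induced with MNNG, an alkylating carcinogen, and a drug that the labels write as Ranitine, over 20 weeks. All 6 libraries share that induction. The vehicle group (3 libraries) then received vehicle for 2 weeks, and the PEEPA-P5 group (3 libraries) received PEEPA-P5, known here only by this code name, by gavage for 2 weeks. No library from mice without gastritis was analysed here, and nothing in the labels ties each library to a mouse of its own. The p-values therefore cover the spread among these 6 libraries, part of which may be technical.

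Mucin O-glycans start when a GALNT enzyme places N-acetylgalactosamine (GalNAc) on a serine or threonine of the mucin backbone in the Golgi. Core enzymes then add galactose or N-acetylglucosamine (GlcNAc) and branch the chain, further enzymes lengthen it, and fucose, sialic acid, sulfate or other sugars close its ends. In the stomach, the surface mucin Muc5ac and the gland mucin Muc6 carry different end groups: fucosylated blood group structures are typical of the surface mucin, and GlcNAc in alpha linkage, made by A4gnt, is typical of the gland mucin.

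Total counts ran from 16388844 to 16903545 per library. The labelled tissue was checked against marker genes. The epithelial markers Epcam, Cdh1, Krt8 and Krt18 summed to between 7543 and 11445 CPM (reads of a gene scaled to a common library size with edgeR's TMM factors) in every library. Markers of cells outside the epithelium were present at lower levels, with sums of 24.9 to 371 CPM for fibroblasts, 19.2 to 274 CPM for smooth muscle, 6.32 to 53.8 CPM for endothelium and 4.504 to 10.4 CPM for immune cells. PEEPA-P5 3 was the lowest library for each of these 4 lists. Tuft cell markers summed to 448 to 809 CPM, but Avil alone was at 432 to 802 CPM. Dclk1, Trpm5 and Pou2f3 were each between 0.81 and 15.9 CPM. Markers of pancreas acini summed to 245 to 385 CPM, of which Cela1 alone had 245 to 384 CPM. Prss1 and Pnlip had at most 5 counts in any library, so each sum mainly follows 1 gene. Squamous markers summed to 2.18 to 11.3 CPM, and the basal squamous keratins Krt5 and Krt14 had at most 1 count in any library. The gastrin gene Gast was at 1859, 1219 and 135 CPM in vehicle 1, 2 and 3 and at 1460, 1004 and 48.0 CPM in PEEPA-P5 1, 2 and 3. Both libraries numbered 3 were the lowest of their group. Pgc of chief cells (84035 CPM) and Atp4a of parietal cells (3166 CPM) were highest in vehicle 3. How far the 6 libraries hold the same part of the stomach was not tested. Because the samples are bulk tissue, fewer cells of a type and less RNA per cell cannot be told apart.

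All main steps of the pathway were represented, at levels that spanned several orders of magnitude (TPM, which corrects for transcript length, so that levels of different genes can be compared). Of the 36 genes, 19 had a mean of 10 TPM or more over the 6 libraries, 7 lay between 1 and 10 TPM and 10 lay under 1 TPM. Gcnt3, the mucin-type enzyme that makes core 2 and core 4 branches, was the highest at 179 ± 28.2 TPM (SD over the 6 libraries). B3gnt3, which extends core 1 chains with GlcNAc, was close behind at 160 ± 30.9 TPM, a distance smaller than the spread of either gene. Fut2, which places the terminal fucose of the H blood group structure, followed at 95.6 ± 13.4 TPM. The A4gnt level was 39.1 ± 21.1 TPM, with a wide spread between libraries.

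**Figure D1:**
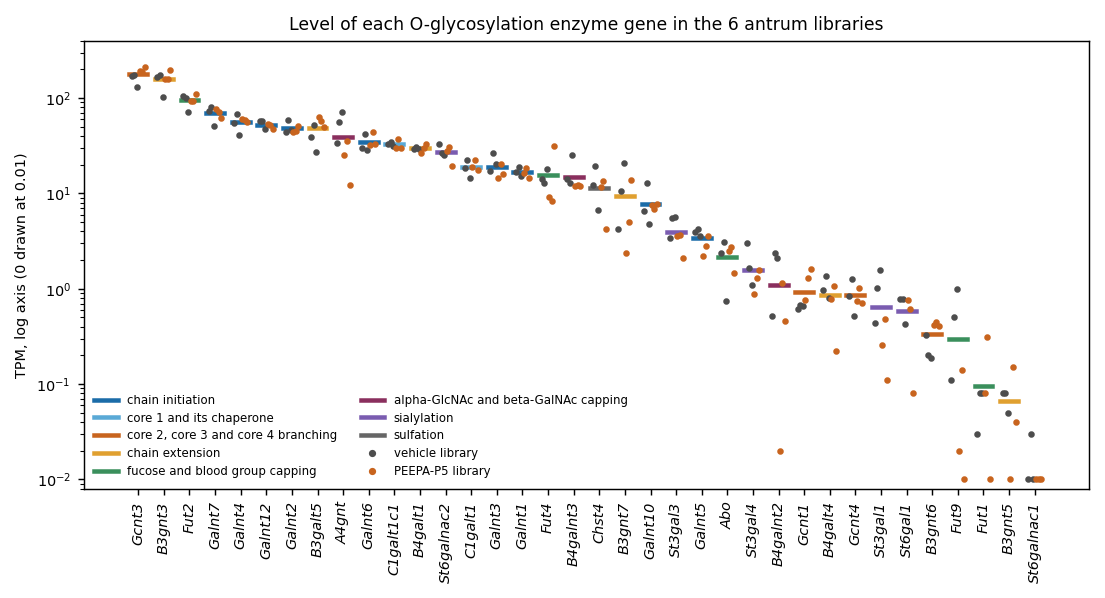
Level of each of the 36 enzyme genes in TPM on a log axis, ordered by the mean over the 6 libraries (coloured bar, by step of the pathway), with 1 point per library (grey, vehicle; orange, PEEPA-P5). Gcnt3, B3gnt3 and Fut2 stand at the top, and the points of Fut9, B4galnt2, B3gnt7 and St3gal1 are spread more widely than those of the genes at the top.

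Chain initiation was shared by several family members rather than led by 1 gene. Galnt7 took 22.5 ± 2.01% of the summed TPM of the 9 Galnt genes (SD, 6 libraries), Galnt4 took 18.2 ± 1.27%, Galnt12 took 17.1 ± 1.28% and Galnt2 took 15.8 ± 1.68%. These 4 together held between 71.3% and 76.3% in every library. Galnt7, Galnt4 and Galnt12 belong to the enzymes known to prefer peptides that already carry GalNAc, whereas Galnt2 and Galnt1 act on bare peptide. In GENCODE M21, 88.9% of the 31-base stretches of Galnt2 also occur in Gm20388, an annotated transcript unit that runs through it. Its level is uncertain if reads were shared with that unit. Whether the annotation behind the expression table holds the unit was not checked. St6galnac1 came next, with 43.2% shared with other genes, mainly Gm11735 (42.1%). For the rest the overlap was smaller: 7.73% of Galnt4 is shared with Poc1b and 3.88% of Fut2 with Sec1. Parts of the exons of B4galnt2 (15.3%), St3gal4 (14.1%) and B3gnt7 (12.6%) face an annotated gene on the other strand. Its reads cannot be told apart if strand was not used. Galnt5, at 1.11 ± 0.258%, had the smallest share.

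Several enzymes of sialylation and of some caps were scarce. St6galnac1, which makes sialyl-Tn, had 1 read in vehicle 2 and 0 in the other 5 libraries, so it was not tested. Of its sequence 42.1% also occurs in Gm11735, and reads may have gone there if the annotation used holds that gene. Fut1, the second enzyme able to make the H structure, had between 0 and 12 reads per library and B3gnt5, which starts a class of glycolipids, between 0 and 11, and neither was tested. Among the sialyltransferases St6galnac2, which adds sialic acid to the first GalNAc, was the highest at 27.2 ± 4.66 TPM, and St3gal3 came next at 3.98 ± 1.37 TPM. Of Chst4, a sulfotransferase that acts on GlcNAc, the mean was 11.4 ± 5.37 TPM. The remaining 33 genes passed the filter on low counts. Fut9 passed it through the vehicle libraries, with 3 of them and 1 PEEPA-P5 library at the required level, and B3gnt6 through the PEEPA-P5 libraries, with 3 of them and 1 vehicle library, so their differences are partly set by the filter. B4galnt2, B4galt4 and St6gal1 had 3 vehicle and 2 PEEPA-P5 libraries at that level, so they too met it through the vehicle group.

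The comparison of PEEPA-P5 with vehicle asks which of these genes differ between gastritis mice with and without the agent. No enzyme gene passed the adjusted threshold of 0.05 in edgeR's quasi-likelihood test over 13071 genes, and neither did any other gene (0% called higher and 0% called lower), and the smallest adjusted p over all genes was 0.412. At an unadjusted p under 0.05, 3 of the 33 tested enzymes were higher with PEEPA-P5 (B3galt5, Gcnt3 and Gcnt1), or 9.09%, against 5.92% of all genes. Another 3 were lower (A4gnt, St3gal1 and Fut9), or 9.09%, against 6.14% of all genes. Of these, Fut9 met the filter through the vehicle libraries, so its place here is partly set by the filter. Below, SE is the standard error of a log2 difference in that fit. DESeq2 called 1 member at its adjusted threshold, B3galt5 (adjusted p = 0.0458), against 0.296% of genes called higher by that tool, and none lower, against 0.538%. Limma-voom called none at its adjusted threshold (0% of genes in each direction). At an unadjusted p under 0.05 it had the same 3 higher genes, against 5.91% of genes, and of the lower ones A4gnt alone, also against 5.91%.

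These counts depended on single libraries and on the pairing by replicate number. With the replicate number as a block the 3 higher genes were the same (6.62% of all genes). There, 4 were lower (7.06% of all genes): B3gnt7, B4galnt2, Fut9 and Galnt3. Of these, B4galnt2 and Fut9 met the filter through the vehicle group. The number of lower enzymes was 4 without vehicle 1, 2 without vehicle 2, 0 without vehicle 3, 0 without PEEPA-P5 1, 3 without PEEPA-P5 2 and 2 without PEEPA-P5 3, where the share of all genes was 7.83%, 2.99%, 2.67%, 3.17%, 6.82% and 4.92%. The number of higher enzymes was 2, 3, 3, 3, 3 and 2 in the same order, where the share of all genes was 7.77%, 2.44%, 3.05%, 4.38%, 5.87% and 3.85%. B3galt5 and Gcnt3 were among the higher enzymes each time. The other members changed. Without vehicle 2 the third higher enzyme was Galnt10 and not Gcnt1. Without PEEPA-P5 3 the lower enzymes were Fut4 and Galnt5, with none of A4gnt, St3gal1 and Fut9. Without both libraries numbered 3, a choice made after seeing the data, B3galt5 and Gcnt1 were higher (3.47% of all genes), and the lower enzymes were Fut4 and Galnt5 (4.48% of all genes) in place of A4gnt, St3gal1 and Fut9.

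By step of the pathway, the estimates lay on different sides. Of the 33 tested genes 19 had a higher estimate with PEEPA-P5, or 57.6%, against 49.4% of all genes, 14 had a lower one, or 42.4%, against 50.6%, and the median log2 difference was 0.03, against -0.005 over all genes. All 4 core branching genes and both core 1 genes had higher estimates. All 3 genes of alpha-GlcNAc and beta-GalNAc capping and all 5 tested sialyltransferases had lower ones. Among these genes B3gnt6 met the filter through the PEEPA-P5 group, and B4galnt2 and St6gal1 through the vehicle group. The lower side of the 3 caps and of the 5 sialyltransferases held with each of the other scaling choices, upper-quartile factors and TPM included. With upper-quartile factors, and on TPM, Gcnt4 turned lower, and on TPM C1galt1c1 did as well. The number of enzymes with a higher estimate was 15 with upper-quartile factors (42.2% of all genes higher) and 12 on log2(TPM + 1) (34.8% of all genes higher). Without vehicle 3, B4galnt3 turned higher and Gcnt4 lower, and without PEEPA-P5 2 Gcnt4 turned lower too. Without vehicle 1, St3gal4 and St6galnac2 turned higher, and without PEEPA-P5 3, St6galnac2 and St6gal1 did. No test of a set of genes was made.

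**Figure D2:**
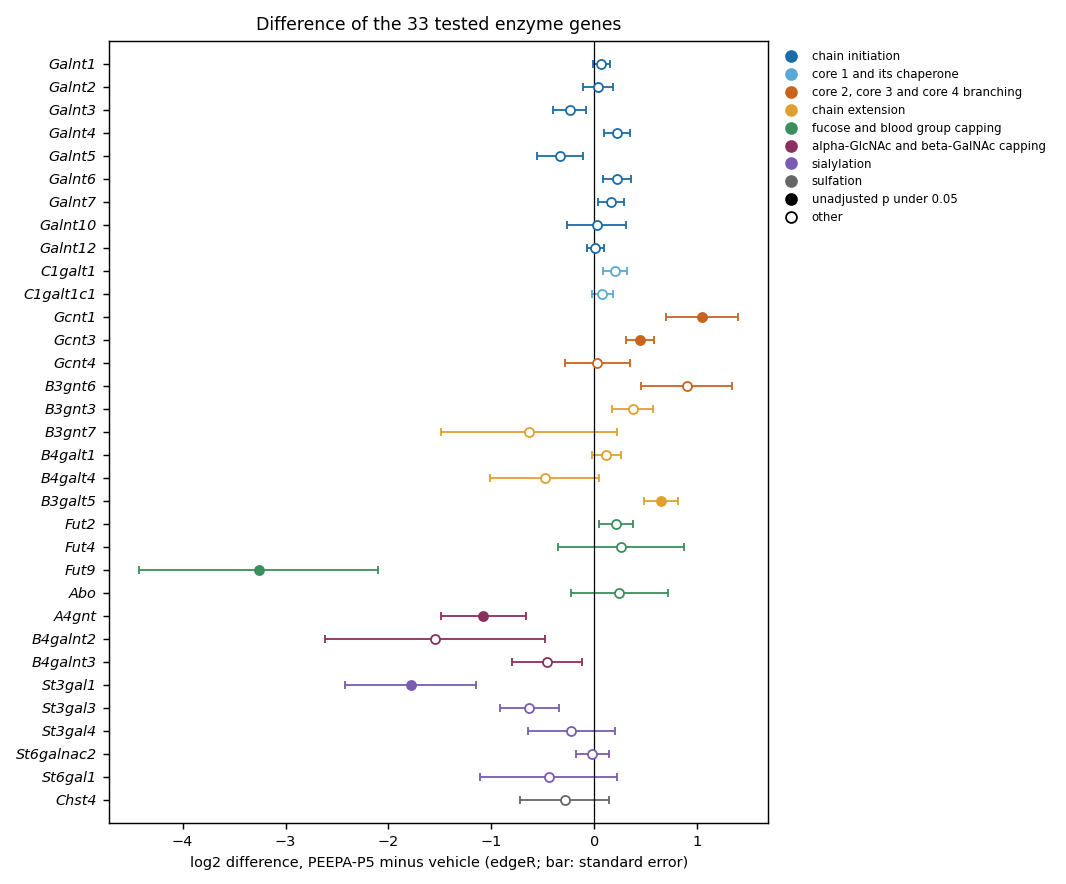
Log2 difference (PEEPA-P5 minus vehicle, edgeR) with its standard error for the 33 tested enzyme genes, in pathway order and coloured by step; filled points have an unadjusted p under 0.05. The filled points on the right are Gcnt1, Gcnt3 and B3galt5, and those on the left are Fut9, A4gnt and St3gal1, with none past the adjusted threshold.

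Among the initiating enzymes the differences were small. The estimates ran from -0.34 to 0.22 (log2), 7 of 9 were above 0, and none had an unadjusted p under 0.05. With the replicate number as a block, Galnt3 had an unadjusted p of 0.0285 in edgeR (adjusted p = 0.364), with a log2 difference of -0.24 (SE 0.08) and lower values in 3 of 3 numbered pairs. Galnt7 (Entrez 108150) was at 294, 292 and 226 CPM in vehicle 1, 2 and 3 and at 323, 292 and 296 CPM in PEEPA-P5 1, 2 and 3. The ranges overlapped, with a log2 difference of 0.16 (SE 0.13). Galnt1 was the only initiating gene whose groups did not overlap, at 58.8, 60.5 and 60.02 CPM with vehicle and 60.9, 66.6 and 60.8 CPM with PEEPA-P5. That gap between the groups was a fraction of 1 CPM, and the log2 difference was 0.07 (SE 0.08). With upper-quartile factors or on TPM the number of initiating genes above 0 was between 3 and 4 of 9.

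Core 1 synthesis needs C1galt1 and its chaperone C1galt1c1, without which the enzyme is not folded. C1galt1c1, the more abundant of the pair, was at 40.1, 38.2 and 42.9 CPM with vehicle and at 38.7, 46.0 and 43.4 CPM with PEEPA-P5. The groups overlapped, and the log2 differences of the chaperone and of C1galt1 were 0.08 and 0.20.

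Branching genes included 2 of the 3 higher ones. Gcnt3 (Entrez 72077) was at 639, 587 and 540 CPM in vehicle 1, 2 and 3 and at 756, 708 and 937 CPM in PEEPA-P5 1, 2 and 3. Every PEEPA-P5 library lay above every vehicle library, and PEEPA-P5 3 was the highest. The means were 800 ± 121 against 589 ± 49.7 CPM (SD, n = 3 each), a log2 difference of 0.44 (SE 0.14; edgeR unadjusted p = 0.0150, adjusted p = 0.412). The log2 difference was 0.32 without PEEPA-P5 3 and 0.26 once both libraries numbered 3 were left out (edgeR unadjusted p = 0.0529). Relative to Muc5ac, the main surface mucin, Gcnt3 stood at 9.49, 10.1 and 8.27 TPM per 100 TPM of Muc5ac with vehicle and at 9.51, 9.32 and 12.04 with PEEPA-P5, and the groups overlapped.

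Gcnt1 (Entrez 14537), the other core 2 enzyme, known best from leukocytes, was far lower in level, with a mean of 0.93 TPM. Its values were 2.59, 2.54 and 3.07 CPM with vehicle and 3.37, 5.66 and 7.93 CPM with PEEPA-P5. The groups were separate, and the PEEPA-P5 libraries were spread over a wide range. The log2 difference was 1.05 (SE 0.35; edgeR unadjusted p = 0.0207, adjusted p = 0.412), and the unadjusted p passed 0.05 when vehicle 1, vehicle 2 or PEEPA-P5 3 was left out (1.01, 1.00 and 0.73, with edgeR p of 0.0580, 0.0620 and 0.0532). The leukocyte gene Ptprc was at 2.88, 3.08 and 2.37 CPM with vehicle and at 1.45, 2.22 and 0.74 CPM with PEEPA-P5. Every vehicle library lay above every PEEPA-P5 library, an order that 10.7% of all genes had. The other tested immune markers, Cd68 and Adgre1, had log2 differences of 0.01 and -0.22, and their groups overlapped. The part of leukocytes in the Gcnt1 values was not tested. B3gnt6, which makes core 3, was at 0.69, 0.38 and 0.45 CPM with vehicle and 0.90, 0.93 and 1.01 CPM with PEEPA-P5. These are counts near the filter, and its log2 difference of 0.90 had an SE of 0.44 (edgeR unadjusted p = 0.0798). Gcnt4 had a log2 difference of 0.03.

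In all, 5 of the 33 tested genes had every PEEPA-P5 library above every vehicle library, or 15.2%, against 9.74% of all genes. They were B3galt5, Gcnt3, Gcnt1, B3gnt6 and Galnt1. B3gnt6 met the filter through the PEEPA-P5 libraries, so its place here is partly set by the filter. For the opposite order the count was 0 of 33, against 10.7% of all genes.

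B3galt5 (Entrez 93961), which adds galactose in beta linkage to GlcNAc and so makes type 1 chains, had the smallest p of the set. It was at 179, 217 and 139 CPM in vehicle 1, 2 and 3 and at 305, 266 and 268 CPM in PEEPA-P5 1, 2 and 3. The lowest PEEPA-P5 library was above the highest vehicle library. Means were 279 ± 22.1 against 178 ± 38.7 CPM, a log2 difference of 0.65 (SE 0.17; edgeR unadjusted p = 0.00576, adjusted p = 0.412). The unadjusted p stayed under 0.05 in 16 of 16 alternatives, with differences from 0.50 to 0.81, and edgeR's adjusted p was above 0.05 in each of its own fits. Relative to Muc5ac, B3galt5 stood at 2.16, 3.03 and 1.74 TPM per 100 TPM with vehicle and at 3.12, 2.84 and 2.81 with PEEPA-P5, so that vehicle 2 lay inside the PEEPA-P5 range.

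**Figure D3:**
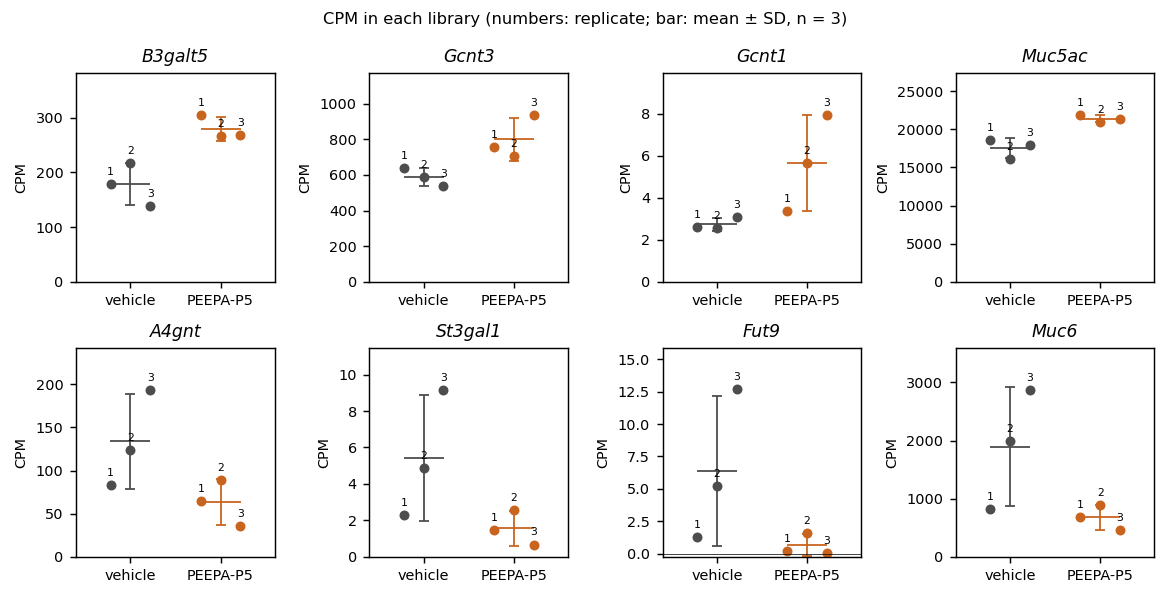
CPM in each library (points, numbered by replicate) with mean and SD (n = 3) for the 6 enzyme genes at an unadjusted p under 0.05 and for the mucins Muc5ac and Muc6. In the upper row (B3galt5, Gcnt3, Gcnt1, Muc5ac) no PEEPA-P5 point falls within the vehicle range; in the lower row (A4gnt, St3gal1, Fut9, Muc6) PEEPA-P5 2 lies above vehicle 1.

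Of the other extension genes, B3gnt3 (Entrez 72297) was at 336, 312 and 234 CPM with vehicle and at 338, 324 and 479 CPM with PEEPA-P5. The groups overlapped through PEEPA-P5 2 and vehicle 1, and the log2 difference was 0.37 (SE 0.20). Without PEEPA-P5 3 it was 0.18. B3gnt7, which builds the repeats of keratan sulfate chains, was at 9.78, 22.01 and 53.4 CPM in vehicle 1, 2 and 3 and at 5.72, 11.7 and 37.5 CPM in PEEPA-P5 1, 2 and 3. Both libraries numbered 3 were the highest of their group, and each PEEPA-P5 library lay below the vehicle library of its number. The estimate was -0.63 (SE 0.86), and with the replicate number as a block it was -0.72 (SE 0.12; edgeR unadjusted p = 0.00215, adjusted p = 0.364). B4galt1, which adds galactose to GlcNAc, had a log2 difference of 0.12, and B4galt4 of -0.48.

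The fucose enzymes had estimates on both sides. Fut2 (Entrez 14344) was at 287, 241 and 213 CPM with vehicle and at 262, 251 and 347 CPM with PEEPA-P5, with overlapping groups and a log2 difference of 0.22. Fut4, which adds the fucose of Lewis x, was at 47.5, 38.4 and 67.6 CPM with vehicle and at 31.9, 28.3 and 123 CPM with PEEPA-P5. As in B3gnt7, both libraries numbered 3 stood highest, and the log2 difference of 0.26 turned to -0.51 without them. On TPM, with limma-voom and with the replicate number as a block (-0.04) it was below 0 as well. Without PEEPA-P5 3 alone it was also below 0, at an unadjusted p under 0.05 in edgeR. Abo, the blood group A and B transferase, had a log2 difference of 0.24 at 0.74 to 3.11 TPM, and turned lower without vehicle 3.

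Fut9 (Entrez 14348), the other Lewis x fucosyltransferase, was low and lower still with PEEPA-P5. Its values were 1.27, 5.23 and 12.7 CPM in vehicle 1, 2 and 3 and 0.24, 1.64 and 0.07 CPM in PEEPA-P5 1, 2 and 3, the last being 1 read. PEEPA-P5 2 lay above vehicle 1, so the groups overlapped. The log2 difference was -3.26 (SE 1.16; edgeR unadjusted p = 0.0279, adjusted p = 0.412). It was -5.27 without PEEPA-P5 2 (edgeR unadjusted p = 0.00699). Without vehicle 3, PEEPA-P5 1 or PEEPA-P5 3 it was -2.29, -2.87 and -2.74, with edgeR unadjusted p of 0.0944, 0.0900 and 0.0826, and without both libraries numbered 3 it was -1.78 (edgeR unadjusted p = 0.180).

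Capping with alpha-GlcNAc depends on A4gnt (Entrez 333424), whose known target is the Muc6 produced by gland cells. A4gnt was at 83.6, 124 and 194 CPM in vehicle 1, 2 and 3 and at 65.0, 88.8 and 35.8 CPM in PEEPA-P5 1, 2 and 3. PEEPA-P5 2 lay just above vehicle 1, and the other libraries were separate. Means were 63.2 ± 26.5 against 134 ± 55.6 CPM, a log2 difference of -1.08 (SE 0.41; edgeR unadjusted p = 0.0379, adjusted p = 0.412). With vehicle 2, vehicle 3, PEEPA-P5 1 or PEEPA-P5 3 left out the difference was -1.13, -0.72, -1.10 and -0.79, with edgeR unadjusted p of 0.0638, 0.121, 0.0890 and 0.0971. With both libraries numbered 3 left out it was -0.43, with an edgeR unadjusted p of 0.148. With the replicate number as a block it was -1.06, with an unadjusted p of 0.0758 in edgeR, and lower in 3 of 3 numbered pairs.

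Muc6 itself was at 829, 1988 and 2872 CPM with vehicle and at 690, 885 and 463 CPM with PEEPA-P5, a log2 difference of -1.48 (SE 0.47). Beside its mucin, A4gnt stood at 20.4, 12.9 and 14.1 TPM per 100 TPM of Muc6 with vehicle and at 18.7, 20.2 and 15.4 with PEEPA-P5, and the groups overlapped. Tff2, the trefoil peptide that is secreted with Muc6, was at 6152 ± 747 CPM with vehicle and 6779 ± 249 CPM with PEEPA-P5, and had a log2 difference of 0.14. Per 100 TPM of Tff2, A4gnt stood at 0.179, 0.220 and 0.422 TPM with vehicle and at 0.115, 0.164 and 0.0693 TPM with PEEPA-P5, so that here every PEEPA-P5 library lay below every vehicle library.

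The beta-GalNAc enzymes were lower in estimate with wide errors. B4galnt3, which makes the LacdiNAc end of gastric mucins, was at 81.4, 64.6 and 167 CPM with vehicle and at 72.2, 73.6 and 82.4 CPM with PEEPA-P5. Vehicle 3 alone stood apart, and the log2 difference was -0.46 (SE 0.34). B4galnt2, which makes the Sda structure, was at 1.96, 8.04 and 8.84 CPM with vehicle and at 0.06, 4.32 and 2.02 CPM with PEEPA-P5. Its log2 difference was -1.55 (SE 1.07), and with the replicate number as a block -2.01 (SE 0.63; edgeR unadjusted p = 0.0264, adjusted p = 0.364), for a gene that met the filter through the vehicle group.

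St3gal1 (Entrez 20442), which closes core 1 chains with sialic acid, was at 2.30, 4.86 and 9.16 CPM in vehicle 1, 2 and 3 and at 1.45, 2.57 and 0.67 CPM in PEEPA-P5 1, 2 and 3. PEEPA-P5 2 again lay above vehicle 1. The log2 difference was -1.78 (SE 0.64; edgeR unadjusted p = 0.0259, adjusted p = 0.412). Without vehicle 3, PEEPA-P5 1 or PEEPA-P5 3 it was -1.19, -1.73 and -1.42, with edgeR unadjusted p of 0.107, 0.0751 and 0.0630. It was -1.67 with the replicate block and -0.83 without both libraries numbered 3, with edgeR unadjusted p of 0.0643 and 0.127. The abundant St6galnac2 was at 57.2, 41.1 and 49.2 CPM with vehicle and at 50.9, 54.4 and 40.3 CPM with PEEPA-P5, with a log2 difference of -0.02 (SE 0.16). The remaining sialyltransferases St3gal3, St3gal4 and St6gal1 had log2 differences of -0.63, -0.22 and -0.44. Chst4 was at 20.8, 29.3 and 12.7 CPM with vehicle and at 20.4, 22.8 and 8.27 CPM with PEEPA-P5. Its lowest value in each group was in the library numbered 3, and the log2 difference was -0.29 (SE 0.44).

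The 3 lower genes shared 1 order of libraries. In A4gnt, St3gal1 and Fut9 alike the values ran from vehicle 3, the highest, through vehicle 2, PEEPA-P5 2, vehicle 1 and PEEPA-P5 1 to PEEPA-P5 3, the lowest. Atp4a, the proton pump subunit of parietal cells, had this order too, as did Kcne2, Pgc, Pga5, Muc6 and the endothelial gene Cdh5 among the marker genes. Of all tested genes 1.42% had it, against 3 of the 33 enzymes. The order was looked for after the values had been seen. Summed parietal markers, Cblif included, were at 883, 3176 and 6487 CPM with vehicle and at 85.4, 793 and 14.0 CPM with PEEPA-P5. Of the 5, all had a lower estimate, against 50.6% of all genes. In edgeR 3 of them had an unadjusted p under 0.05: Kcne2 and Slc26a7, which are in the parietal list alone, and Cblif. Cblif is in the chief cell list too and is counted in both, so these lists are not independent. It therefore cannot separate parietal from chief cells here. Cblif made up most of the parietal sum in PEEPA-P5 1 and PEEPA-P5 3, so those sums mainly follow a gene shared with the chief cell list. For the proton pump genes Atp4a and Atp4b the edgeR unadjusted p was 0.136 and 0.0924. Chief cell markers were at 9276 to 84577 CPM with vehicle and 2724 to 9948 CPM with PEEPA-P5. Pgc alone was at 9021 to 84035 and 2702 to 9779 CPM, so the sum mainly follows 1 gene. All 4 were lower at an unadjusted p under 0.05, against 6.14% of all genes. Enteroendocrine markers were at 1374 to 2735 and 106 to 1924 CPM, with 5 of 5 estimates lower and 1 at an unadjusted p under 0.05. Markers of mucous gland and neck cells were at 6613 to 9051 and 7030 to 7802 CPM, of which Tff2 alone had 5704 to 7014 and 6548 to 7042 CPM. Of these 4 estimates 2 were lower and 1 of these, Muc6, was at an unadjusted p under 0.05. The 5 fibroblast, 5 smooth muscle and 4 endothelial markers also had lower estimates, and 0 of them had an unadjusted p under 0.05. Their part in the lower enzymes was not tested.

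**Figure D4:**
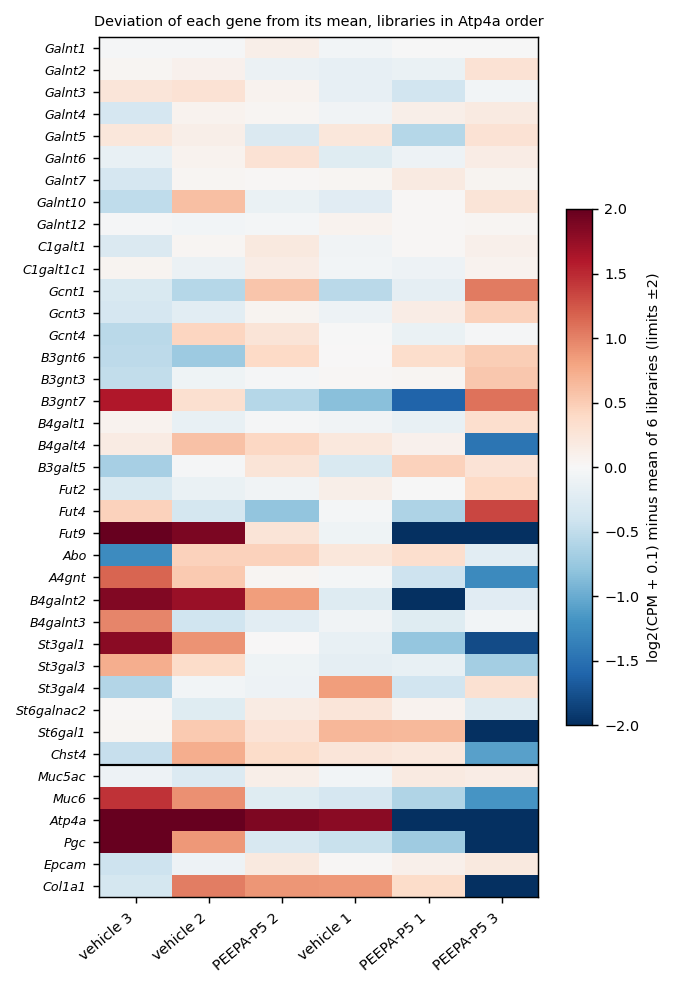
Deviation of log2(CPM + 0.1) from the mean of the 6 libraries for the 33 tested enzymes and, below the line, 6 marker genes; columns follow the order of Atp4a from high to low, and colours are limited to ±2. A4gnt, St3gal1 and Fut9 run from red to blue along the columns as Muc6, Atp4a and Pgc do, whereas Galnt1, Galnt12 and C1galt1c1 are nearly white.

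Beside the higher enzymes stood markers of pit cells, the mucous cells of the surface. Muc5ac, Tff1, Gkn1, Gkn2 and Foxq1 summed to 108087 to 128227 CPM with vehicle and 139347 to 171600 CPM with PEEPA-P5. Of these, 5 of 5 had a higher estimate, against 49.4% of all genes, and 3 of them had an unadjusted p under 0.05, against 5.92% of all genes. All 4 epithelial markers had higher estimates as well, 2 of them at an unadjusted p under 0.05, with sums of 7543 to 9228 against 9697 to 11445 CPM. Intestinal goblet cell and enterocyte markers were at 207 to 520 CPM with vehicle and 558 to 668 CPM with PEEPA-P5. All 5 tested ones had a higher estimate, 0 had an unadjusted p under 0.05, and the groups of 4 overlapped. The part of these markers in the higher enzymes was not tested.

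The promoter windows of B3galt5, the higher gene with the smallest p, and of A4gnt, the most abundant of the lower genes, are printed from RefSeq (GRCm38.p6, plus strand, 250 bases before to 50 after the start, 5′ to 3′). RefSeq lists 3 starts for B3galt5 and 1 for A4gnt, and the expression table does not say which start was used. Capitals mark the single match to the letters searched.
B3galt5 start 1 (chr16:96235551-96235850): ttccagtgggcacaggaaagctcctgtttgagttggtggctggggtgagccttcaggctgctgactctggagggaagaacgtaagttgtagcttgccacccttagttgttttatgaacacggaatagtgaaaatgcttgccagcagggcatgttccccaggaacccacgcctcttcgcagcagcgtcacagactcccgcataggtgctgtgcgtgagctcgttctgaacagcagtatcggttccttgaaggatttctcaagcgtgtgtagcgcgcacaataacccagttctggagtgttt
B3galt5 start 2 (chr16:96273263-96273562): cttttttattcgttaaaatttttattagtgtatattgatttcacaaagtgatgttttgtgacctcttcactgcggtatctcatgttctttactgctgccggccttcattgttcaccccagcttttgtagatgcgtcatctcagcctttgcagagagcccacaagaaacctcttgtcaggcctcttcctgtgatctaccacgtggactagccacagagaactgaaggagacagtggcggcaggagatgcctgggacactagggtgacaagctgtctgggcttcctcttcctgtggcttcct
B3galt5 start 3 (chr16:96280782-96281081): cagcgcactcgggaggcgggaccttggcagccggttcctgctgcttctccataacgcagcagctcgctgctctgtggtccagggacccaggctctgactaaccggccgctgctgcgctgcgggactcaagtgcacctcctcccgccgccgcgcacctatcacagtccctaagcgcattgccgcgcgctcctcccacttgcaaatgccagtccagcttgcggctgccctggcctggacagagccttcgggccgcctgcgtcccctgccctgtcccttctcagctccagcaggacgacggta
A4gnt (chr9:99612252-99612551): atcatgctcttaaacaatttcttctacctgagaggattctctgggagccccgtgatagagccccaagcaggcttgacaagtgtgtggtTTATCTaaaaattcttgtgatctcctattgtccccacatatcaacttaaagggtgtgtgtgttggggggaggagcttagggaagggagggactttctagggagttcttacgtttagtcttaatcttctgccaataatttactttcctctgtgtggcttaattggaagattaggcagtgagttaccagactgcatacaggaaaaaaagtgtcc
Both strands were searched for 5 short motifs, and their share was taken over 32851 promoter windows of the same length. The letters TATAAA of the TATA element are in 13.6% of windows, and AGATAA of GATA factors in 11.2%. For FOX factors the letters TGTTTAC were used, which 3.65% of windows hold, for E-box factors CAGCTG, which 16.3% hold, and for Sp factors GGGCGG, which 35.7% hold. In the A4gnt window the GATA letters stand on the minus strand, beginning 162 bases before the start. None of the 3 B3galt5 windows held any of the 5. The A4gnt window had a GC content of 43.7% and 2 CpG sites. The B3galt5 windows had 53.0%, 47.3% and 67.3% GC and 12, 6 and 24 CpG sites, against a median GC content of 52.7% over all windows. A match is a run of letters and does not show that a factor binds.

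Genes that supply sugars to these enzymes were on both sides, more of them higher. Of the 22 tested genes for nucleotide sugars and for PAPS, the sulfate donor, as well as the 8 Golgi transporters that bring these donors in, 13 and 7 had higher estimates, against 49.4% of all genes, and none passed the adjusted threshold. On log2(TPM + 1) these counts were 12 and 5, where 34.8% of all genes were higher. Cmas, which activates sialic acid, was at 135, 111 and 108 CPM with vehicle and 170, 152 and 187 CPM with PEEPA-P5, a log2 difference of 0.53 (SE 0.13; edgeR unadjusted p = 0.00417, adjusted p = 0.412). Slc35a1, which carries that activated sialic acid into the Golgi, was at 80.3, 65.9 and 67.5 CPM with vehicle and 85.0, 83.6 and 99.6 CPM with PEEPA-P5. The groups of both genes were separate, an order that 9.74% of all genes had. The other genes of sialic acid supply, Gne, Nans and Nanp, had log2 differences of -0.33, -0.03 and 0.05. Papss1, which makes PAPS, was at 101, 89.0 and 73.0 CPM with vehicle and 111, 111 and 152 CPM with PEEPA-P5. Ugp2, which makes UDP-glucose, had a log2 difference of 0.25. By unadjusted p under 0.05, 4 supply genes were higher and 1 lower, and 1 transporter was higher and 0 lower, against 5.92% of all genes higher and 6.14% lower. The lower supply gene was Pgm3, a step toward UDP-GlcNAc, named here after its values were seen, with a log2 difference of -0.39.

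Other transferases of the same families had estimates on both sides. Of 32 tested, 12 had higher and 20 lower estimates, where 49.4% and 50.6% of all genes did, with a median log2 difference of -0.12. By unadjusted p under 0.05, 1 was higher and 3 were lower, against 5.92% and 6.14% of all genes. On log2(TPM + 1) the split was 10 and 22, where 34.8% of all genes were higher. Fut8, which fucosylates the core of N-glycans, was higher, at 155 ± 17.2 against 122 ± 11.6 CPM. B4galt5, which acts in glycolipid synthesis, was lower, at 2.65 ± 1.07 against 5.64 ± 1.55 CPM. Gcnt2, which branches chains to form the I antigen, was at 2.11 ± 1.08 against 4.52 ± 1.14 CPM, and Galnt11 at 15.98 ± 0.83 against 20.0 ± 1.05 CPM. Mucins and their secreted partners had higher estimates in 11 of 13 tested genes, against 49.4% of all genes. Several of them, such as Muc5ac, Tff1, Gkn1, Gkn2, Muc2 and Tff3, were also in the pit or intestinal marker lists, so these lists are not independent. Besides Muc5ac, the surface cell peptide Gkn1 was higher at an unadjusted p under 0.05, with a log2 difference of 0.31. Mean Muc5ac was 21401 ± 480 CPM in the PEEPA-P5 group and 17530 ± 1321 CPM in the vehicle group, a log2 difference of 0.29, whereas Muc1, a membrane mucin, had a log2 difference of -0.22. Muc6 was lower as well, with a log2 difference of -1.48 (edgeR unadjusted p = 0.0177, adjusted p = 0.412).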

How the data were processed

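The expression table holds 6 RNA-seq libraries of antrum epithelium, 3 per group. The submitters' processing notes name Bowtie2 2.2.5, RSEM 1.2.12 and build mm9. What each was used for, its settings and the handling of strand were not given in the sources used here. The columns are, per the file headers, the authors' expected counts (estimated reads per gene, not normalized), TPM and FPKM per gene and library, and group means, which were not used. FPKM was not used either. Of the expected counts 9.82% were not whole, and they were rounded. No pair of libraries was a near copy (lowest chi-square per df 13.3).

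Counts were tested with edgeR 4.0.16 (R 4.3.3; TMM, filterByExpr, robust quasi-likelihood test, Benjamini-Hochberg adjustment over 13071 genes at 0.05), which was tested on simulated data. The required level was 0.60 CPM in 3 libraries, and 1 CPM is 14.9 to 18.5 reads. Log2 differences and standard errors come from that fit. The members, the gene lists and the naming rule were chosen with earlier results of these data known. Values per library are given for members at an unadjusted p under 0.05 or with separate groups, the most abundant member of each step and A4gnt, with some others added, and related genes are named at an unadjusted p under 0.05, except for 1 that is not reported here.

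Same-numbered libraries of the groups deviated together, with correlations of 0.237, 0.346 and 0.235, so the numbers were taken as pairs. Libraries with different numbers had correlations from -0.349 to 0.176. Deviations from a group mean sum to 0, so these correlations are not independent. The pairing rests on the data, since the labels do not say what a number means. The p-values of the block fit therefore use a pairing picked from the same values. The main fit has no block. Alternatives were DESeq2 1.42.0, limma-voom and limma-trend (limma 3.58.1) on log2 TPM, other scaling and filters, the replicate block, each library left out, and, chosen after seeing the data, both libraries numbered 3 left out. Shared sequence was counted in GENCODE M21 transcripts. Of the 36 genes, 23 matched the RefSeq promoter table. The builds differ, so no other coordinates are given.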

Additional observations from a re-analysis of the deposited data

How the results depend on the processing

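Across 16 alternatives the 6 enzymes at an unadjusted p under 0.05 kept their direction. B3galt5 stayed under 0.05 in 16, Gcnt3 in 15, Gcnt1 in 13, Fut9 in 11, St3gal1 in 10 and A4gnt in 9. The number of higher enzymes past the adjusted threshold was 0, and 1 with DESeq2. The number of lower enzymes at an unadjusted p under 0.05 was 3. It was 1 with limma-voom, 2 with a filter of at least 1 count in any library and 2 without both libraries numbered 3. With 1 library left out it ran from 0 to 4, being 0 without vehicle 3 and 0 without PEEPA-P5 1. For the higher enzymes that count ran from 2 to 3. The members changed too, and without PEEPA-P5 3 the lower ones were Fut4 and Galnt5. With the replicate block there were 3 higher (B3galt5, Gcnt1, Gcnt3) and 4 lower (B3gnt7, B4galnt2, Fut9, Galnt3), and the block changed no call at the adjusted threshold. The median log2 difference of the enzymes was 0.03 and turned to -0.073 on log2(TPM + 1), -0.074 on log2(TPM + 0.1), -0.02 with upper-quartile factors and -0.04 without both libraries numbered 3; on TPM the median of all genes was -0.08 and -0.10. With 1 library left out it ran from 0.03 to 0.09. Small estimates changed sign: Galnt1 (-0.033 on log2(TPM + 1), -0.035 on log2(TPM + 0.1)), C1galt1c1 (-0.026 and -0.027), Fut2 (-0.037 without both libraries numbered 3), St6galnac2 (0.11 without vehicle 1, 0.10 without PEEPA-P5 3, 0.10 without both libraries numbered 3; from -0.13 to 0.11 with 1 library left out) and Chst4 (0.03 without vehicle 2, 0.044 without PEEPA-P5 3; from -0.54 to 0.044). The cause was not tested. Depth limits B3gnt5, Fut1 and St6galnac1, which were too low to test. Shared sequence is a further limit for St6galnac1.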
